A study of Mus musculus with 20 samples.

Results

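The regions described here are those where Foxp3 was listed in Bcl11b-deficient regulatory T (Treg) cells and where Bcl11b was listed in wild-type (WT) Treg cells. The KO Foxp3 set is the list common to WT and Bcl11b-KO Treg plus the list specific to Bcl11b-KO Treg. The Treg Bcl11b set is the list common to Bcl11b and Foxp3 in WT Treg plus the list specific to Bcl11b. Of the 22081 distinct regions in the series, 12875 were in the KO Foxp3 set and 7235 in the Treg Bcl11b set, and 3003 were in both with identical chromosome, start and end. These 3003 are called matched regions. Of them, 10 stood in a pair of lists of the KO comparison at once (9 as both WT-specific and common, 1 as both common and KO-specific) and were left out, so that 2993 were analysed.

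The lists come from chromatin immunoprecipitation and sequencing (ChIP-seq) of C57BL/6 mouse cells, which were sorted from draining lymph nodes and spleen. Bcl11b-KO Treg were CD4+YFP+ cells of Bcl11b f/f Foxp3-IRES-YFP-Cre mice, with 2 Foxp3 libraries. WT Treg were CD4+YFP+ cells of Foxp3-IRES-YFP-Cre mice, with 2 Foxp3 libraries and 3 Bcl11b libraries. Both genotypes therefore carried the YFP-Cre cassette at the Foxp3 locus, which expresses Cre in cells that express Foxp3. Other Bcl11b lists came from 3 libraries of Tn cells, whose labels give the same genotype and sort as WT Treg, and from 2 libraries of KIKO cells, CD4+GFP+ cells of Foxp3-GFPKO mice that lack Foxp3. The labels give no age or sex and do not say whether replicates came from separate animals. Each list is per group and holds positions only, with no score, no value per library and no depth, so no library could be compared with another, no spread between replicates was available and no test between conditions was made. The intervals below are 95% intervals that cover counting error over regions only. No Bcl11b ChIP of the KO cells was used here, and positions measure no expression, so neither the deletion nor the identity of the sorted cells was checked.

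Bcl11b is a zinc-finger transcription factor that T cells need to commit to and keep their identity, and it works largely with chromatin-modifying complexes such as NuRD. Foxp3 is the forkhead transcription factor that defines Treg cells, and it binds DNA together with other T-cell factors of the Runx, Ets and NFAT families. Much of the DNA that Foxp3 occupies is open in T cells before Foxp3 is made. A comparison of Foxp3 in Bcl11b-KO Treg with Bcl11b in WT Treg therefore asks whether Foxp3 is still listed at sites that Bcl11b held, and whether it is newly listed at such sites once Bcl11b is deleted.

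A few promoters show what the matched regions look like as sequence. The stretches below are the part of each region that lies upstream of a transcription start listed in RefSeq (GRCm38.p6, the assembly with mm10 coordinates), on the gene's strand, 5′ to 3′. Capitals mark the short motifs that were searched for, on either strand: forkhead (TGTTTAC and TGTTTGC), Runx (TGTGGT), Ets (CCGGAA), AP-1 (TGANTCA), Sp/Klf (GGGCGG) and the BCL11A-type TGACCA. The first 5 lie in regions kept in Bcl11b-KO Treg. Il2ra encodes the high-affinity IL-2 receptor chain CD25 (chr2:11642542-11642791, plus strand). Stat5b, a transcription factor that acts downstream of IL-2, has an internal start here (chr11:100822571-100822820, minus strand). Ptpn22 encodes a phosphatase that restrains T-cell receptor signals, and its start here is also internal (chr3:103860056-103860276, plus strand), Cxcr4 a chemokine receptor (chr1:128592300-128592549, minus strand) and Batf an AP-1 family factor (chr12:85686470-85686719, plus strand).
Il2ra: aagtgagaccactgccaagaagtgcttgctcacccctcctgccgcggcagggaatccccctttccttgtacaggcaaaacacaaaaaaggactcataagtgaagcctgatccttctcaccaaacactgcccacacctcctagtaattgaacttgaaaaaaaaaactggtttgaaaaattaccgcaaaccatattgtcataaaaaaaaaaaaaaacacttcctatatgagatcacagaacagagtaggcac
Stat5b: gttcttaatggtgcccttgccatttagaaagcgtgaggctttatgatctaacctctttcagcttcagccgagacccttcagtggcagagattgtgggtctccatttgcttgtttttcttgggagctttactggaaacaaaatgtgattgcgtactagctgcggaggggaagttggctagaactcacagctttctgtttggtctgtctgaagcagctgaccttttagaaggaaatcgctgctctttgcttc
Ptpn22: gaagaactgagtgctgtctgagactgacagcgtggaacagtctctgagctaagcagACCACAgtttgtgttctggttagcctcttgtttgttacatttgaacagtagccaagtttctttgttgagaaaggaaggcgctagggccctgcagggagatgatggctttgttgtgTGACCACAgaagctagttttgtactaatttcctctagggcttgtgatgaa
Cxcr4: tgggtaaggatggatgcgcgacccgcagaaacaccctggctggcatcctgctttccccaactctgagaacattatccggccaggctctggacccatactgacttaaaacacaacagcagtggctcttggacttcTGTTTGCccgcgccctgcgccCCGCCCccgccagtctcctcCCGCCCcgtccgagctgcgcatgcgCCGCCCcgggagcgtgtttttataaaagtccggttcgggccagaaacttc
Batf: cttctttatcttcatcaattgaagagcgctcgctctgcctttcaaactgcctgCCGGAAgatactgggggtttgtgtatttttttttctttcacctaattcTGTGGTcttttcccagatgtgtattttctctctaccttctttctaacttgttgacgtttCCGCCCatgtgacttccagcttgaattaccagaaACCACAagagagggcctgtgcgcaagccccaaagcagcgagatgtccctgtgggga
The Ptpn22 stretch holds 2 Runx motifs and 1 BCL11A-type motif, which overlaps 1 of the Runx motifs. The Cxcr4 stretch holds 1 forkhead motif and 3 Sp/Klf motifs, while the Il2ra and Stat5b stretches hold none of the motifs searched for.

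Other promoters were in the Treg Bcl11b set and on the WT Foxp3 list but not on the KO Foxp3 lists, so they are not matched regions. Ctla4 encodes an inhibitory receptor of Treg cells (chr1:60908846-60909024, plus strand), and Mcl1 a survival factor of the Bcl2 family, with an internal start (chr3:95658471-95658720, plus strand).
Ctla4: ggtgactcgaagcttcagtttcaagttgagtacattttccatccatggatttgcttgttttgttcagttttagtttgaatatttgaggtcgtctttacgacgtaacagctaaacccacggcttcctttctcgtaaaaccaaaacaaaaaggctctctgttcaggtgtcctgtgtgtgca
Mcl1: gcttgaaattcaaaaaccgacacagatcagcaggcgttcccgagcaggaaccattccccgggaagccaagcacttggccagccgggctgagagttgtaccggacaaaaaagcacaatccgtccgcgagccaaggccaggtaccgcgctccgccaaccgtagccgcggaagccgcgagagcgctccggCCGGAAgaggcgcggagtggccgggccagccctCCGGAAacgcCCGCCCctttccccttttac
The Mcl1 stretch holds 2 Ets motifs and 1 Sp/Klf motif, and the Ctla4 stretch holds none. Il2ra, Ctla4 and Stat5b came first by a fixed order of genes, and the other 4 were chosen after their classes were known. The regions at the Il2ra, Stat5b, Cxcr4, Batf and Ctla4 starts were absent from the Treg side of the Bcl11b comparisons with Tn and with KIKO cells, a point taken up below.

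Foxp3 was still listed in Bcl11b-KO Treg at 41.4% of the Treg Bcl11b regions (2993 of 7225, interval 40.3 to 42.6), against 58.3% of all regions of the series. Seen from the other side, 23.3% of the KO Foxp3 regions (2993 of 12858, interval 22.6 to 24.0) were Treg Bcl11b regions, against 32.7% of all regions. The share was not alike across the Bcl11b regions. Of the 4728 regions that Bcl11b shared with Foxp3 in WT Treg, called Bcl11b-Foxp3 regions, 61.9% were in the KO Foxp3 set (interval 60.5 to 63.3). Of the 2497 Bcl11b regions with no WT Foxp3, called Bcl11b-only regions, 2.60% were in it (interval 2.05 to 3.30). Among regions at least 276 bp wide, where 75.3% of all Treg Bcl11b regions were in the KO Foxp3 set, these shares were 75.9% (interval 74.4 to 77.4) and 57.0% (interval 47.8 to 65.7). Matched regions were nearly all sites where Foxp3 was already listed in WT Treg: 2841 of the 2993 (94.9%) were Bcl11b-Foxp3 regions listed as common to WT and KO Treg.

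The Bcl11b-Foxp3 regions fell into 4 classes. Those listed as common to WT and KO Treg are called kept and numbered 2841; kept regions made up 68.7% of all WT Foxp3 regions of the KO comparison. Those on the WT-specific list are called lost and numbered 1253. A further 87 were on the KO-specific list, although the Bcl11b comparison listed WT Foxp3 there, where 17.9% of the whole KO Foxp3 set was KO-specific. The remaining 547 were in no list of the KO comparison. The WT Foxp3 libraries enter both comparisons, and their regions differed between them: 298 of the 2308 KO-specific regions (12.9%) were on a WT Foxp3 list of the Bcl11b comparison, and 1960 of the 10550 kept regions (18.6%) were on none. The rule by which the authors called a region common is not stated in the labels or files.

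**Figure D1:**
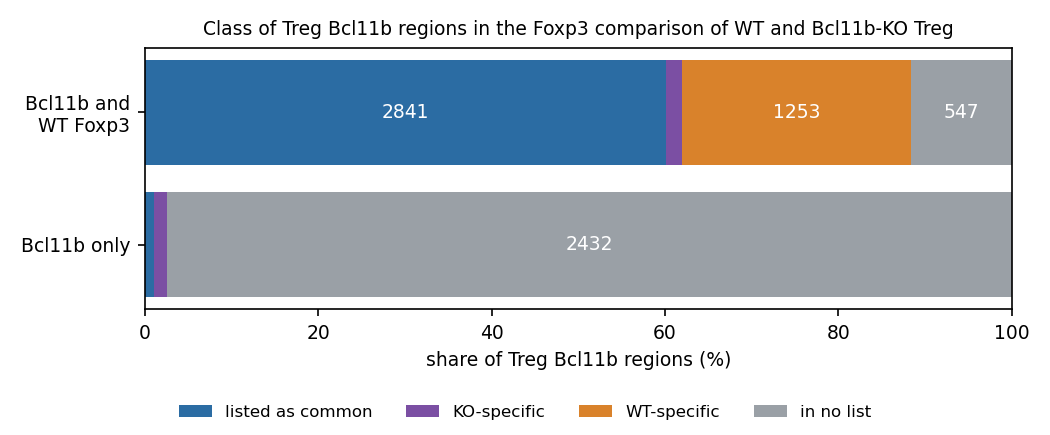
The bars show, in percent of Treg Bcl11b regions, their class in the Foxp3 comparison of WT and Bcl11b-KO Treg, for 4728 regions shared with WT Foxp3 (top) and 2497 Bcl11b-only regions (bottom). Kept regions (2841) and lost regions (1253) make up most of the upper bar, while 2432 of the Bcl11b-only regions were in no list.

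Among WT Foxp3 regions with a kept or lost call, 69.4% of the Bcl11b-Foxp3 regions were kept (2841 of 4094, interval 68.0 to 70.8). Of the WT Foxp3 regions that the Bcl11b comparison listed as Foxp3-specific, called Foxp3-only regions, 61.9% were kept (5749 of 9293, interval 60.9 to 62.8). The difference was 7.53 percentage points in favour of sites with Bcl11b (interval 5.80 to 9.24), with an odds ratio of 1.40 (interval 1.29 to 1.51). This difference rested on which regions served as the reference. Once the WT Foxp3 regions that were in neither list of the Bcl11b comparison were added to it, 68.3% of the reference was kept and the difference was 1.07 points (interval -0.591 to 2.71).

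The difference also moved with the width of the regions. A list's commonest width was 198 bp for Treg Bcl11b, 220 bp for WT Foxp3 and 276 bp for KO Foxp3, and 71.4% of the matched regions were wider than 276 bp. Of the regions 220 bp wide, 43.2% of the Bcl11b-Foxp3 regions and 43.3% of the Foxp3-only regions were kept, a difference of -0.0134 points (interval -3.86 to 3.90). At 276 bp the kept shares were 77.1% with Bcl11b and 85.0% without it (difference -7.93 points, interval -12.2 to -3.88). Over 276 bp they were 76.8% and 84.4% (difference -7.63 points, interval -9.70 to -5.56; odds ratio 0.611). Within these wider classes the direction was thus the reverse of the pooled one, with fewer regions kept where Bcl11b was listed. Only 17.3% of the Bcl11b-Foxp3 regions were 220 bp wide, against 54.4% of the Foxp3-only regions, and 64.1% against 32.3% were over 276 bp. How the boundaries of a region were drawn is not stated, so width and the presence of Bcl11b cannot be told apart in these lists.

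Pooled over widths, distance to genes moved the difference in size and not in sign. Within 1 kb of where a protein-coding gene starts or ends (a gene end), 69.1% of Bcl11b-Foxp3 regions and 66.1% of Foxp3-only regions were kept (difference 3.05 points, interval 0.643 to 5.43). From 1 to 10 kb the shares were 70.3% and 59.1% (difference 11.2 points), from 10 to 50 kb 69.4% and 59.1% (difference 10.2 points), and beyond 50 kb 65.4% and 53.2% (difference 12.1 points, interval 1.36 to 22.0). In these pooled shares, the kept share of Bcl11b-Foxp3 regions varied little with distance, while that of Foxp3-only regions was lower away from gene ends. Among regions over 276 bp this pattern was absent. There 74.9% and 83.7% were kept within 1 kb (difference -8.84 points, interval -11.7 to -5.99). Farther off, 79.6% and 85.1% were kept (difference -5.54 points, interval -8.60 to -2.55). Regions with another region of the series within 5 kb differed by 8.34 points, and those without one by 6.73 points.

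**Figure D2:**
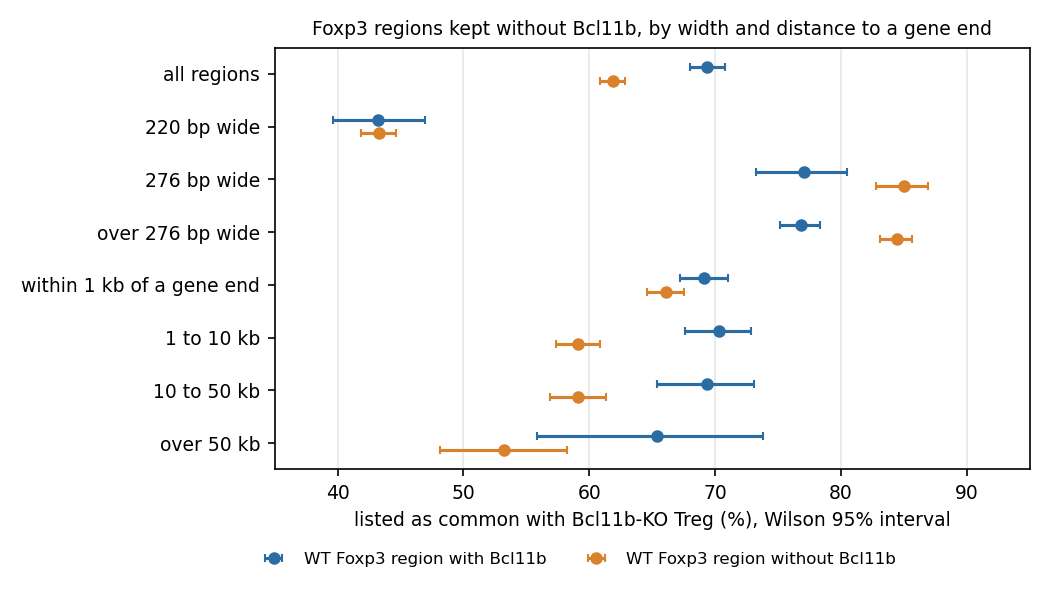
Points show the percent of WT Foxp3 regions listed as common with Bcl11b-KO Treg, with Wilson 95% intervals, for regions with Bcl11b (blue) and without Bcl11b (orange), by region width and by distance to a gene end. The blue point lies to the right in the pooled data (69.4% against 61.9%) and to the left among regions 276 bp wide (77.1% against 85.0%) and wider (76.8% against 84.4%).

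Not every matched region was listed for Treg Bcl11b in the study's other comparisons. Of the 2993, 1843 (61.6%, interval 59.8 to 63.3) stood also among the Treg regions when Bcl11b was compared with Tn or KIKO cells, and 1150 (38.4%) were on neither. Outside the KO Foxp3 set, 85.3% of the Treg Bcl11b regions were on either side (3608 of 4232). Absence was most frequent at the commonest Foxp3 widths: 293 of the 307 matched regions 220 bp wide and 295 of the 431 that were 276 bp wide were on neither side, against 555 of the 2136 over 276 bp. Only 93 of the 1150 lay within 500 bp of a region that was listed there, and their median gap to one was 20652 bp. All 2497 Bcl11b-only regions were on at least 1 of these sides. For 38.4% of the matched regions, Bcl11b in WT Treg therefore rests on the comparison with Foxp3 alone. Of the Bcl11b-Foxp3 regions on either side, 73.2% were kept (1714 of 2343, interval 71.3 to 74.9), and of those on neither, 64.4% (1127 of 1751, interval 62.1 to 66.6).

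KO-specific Foxp3 regions stood at Bcl11b regions less often than kept or lost ones did, by shares that moved with width. Of the KO-specific regions, 5.42% (125 of 2308, interval 4.56 to 6.42) were Treg Bcl11b regions. Kept regions were Bcl11b regions in 27.2% of cases (2868 of 10550, interval 26.3 to 28.0) and lost regions in 26.0% (1253 of 4815, interval 24.8 to 27.3). Thus kept and lost Foxp3 regions held Bcl11b at shares whose intervals overlapped, and the KO-specific share was below both intervals. Of the 7225 Treg Bcl11b regions, 4728 were shared with WT Foxp3, whereas a KO-specific region is by definition not listed for WT Foxp3 in the KO comparison. A lower KO-specific share thus follows in part from how the lists were defined. Among regions over 276 bp the shares were 30.9% of the KO-specific (98 of 317, interval 26.1 to 36.2), 43.3% of the kept (2038 of 4706, interval 41.9 to 44.7) and 56.5% of the lost (609 of 1078, interval 53.5 to 59.4). The KO-specific share was again the lowest, and here lost regions stood at Bcl11b more often than kept ones. Of the 125 KO-specific matched regions, 87 were Bcl11b-Foxp3 regions. The other 38, or 1.65% of the KO-specific list (interval 1.20 to 2.25), were Bcl11b-only regions and so are the sites where Foxp3 was listed in KO Treg, Bcl11b was listed in WT Treg and WT Foxp3 was in neither comparison.

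These 38 regions lay near genes of several kinds, here named after their classes were known. Arid5a encodes an RNA-binding protein that stabilises cytokine transcripts, and its region was at chr1:36325824-36326243. Xbp1, a transcription factor of the unfolded protein response, had one at chr11:5509341-5509779, and Cdkn1a, which encodes the cell-cycle inhibitor p21, at chr17:29078903-29079280. Regions inside genes included Dot1l, a histone H3K79 methyltransferase gene (chr10:80758667-80758974), and Patz1, a gene for a BTB zinc-finger protein (chr11:3289710-3289985). A further 27 Bcl11b-only regions were listed as common to WT and KO Foxp3, although the Bcl11b comparison did not list WT Foxp3 there. Among them were regions inside Sgk1, which encodes a kinase (chr10:21994188-21994819), and Klf4, which encodes a zinc-finger factor (chr4:55530217-55530498), and 1 near Cd70, the ligand of CD27 (chr17:57138730-57139052). All 65 of these regions were at least 276 bp wide, and none of the 2383 narrower Bcl11b-only regions was in the KO Foxp3 set, which allows a share of up to 0.126% if a count of 0 is read as at most 3 (the Wilson upper limit is 0.161%). Of the 114 Bcl11b-only regions at least 276 bp wide, 65 (57.0%) were in it. Of the 2432 in no list, 2336 (96.1%) had the Treg Bcl11b width of 198 bp. No KO-specific matched region was narrower than 276 bp either, so the width of a region and its place in the KO Foxp3 set cannot be told apart here. With edges allowed up to 500 bp apart, the share of Bcl11b-only regions in the KO Foxp3 set was 3.60% instead of 2.60%.

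KO-specific regions that were not Bcl11b regions lay farther from one at short range than kept or lost regions did. Their median distance to the nearest Treg Bcl11b region was 34.4 kb, against 25.7 kb for kept and 25.9 kb for lost Foxp3 regions without Bcl11b. Within 1 kb of a Bcl11b region lay 4.08% of the KO-specific regions (interval 3.32 to 4.99), 8.46% of the kept (interval 7.86 to 9.10) and 7.05% of the lost (interval 6.25 to 7.93). Within 5 kb the shares were 15.3%, 18.7% and 18.7%. At long range the order turned: the 90th percentile of the distance was 235.0 kb for KO-specific, 260.7 kb for kept and 300.7 kb for lost regions.

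**Figure D3:**
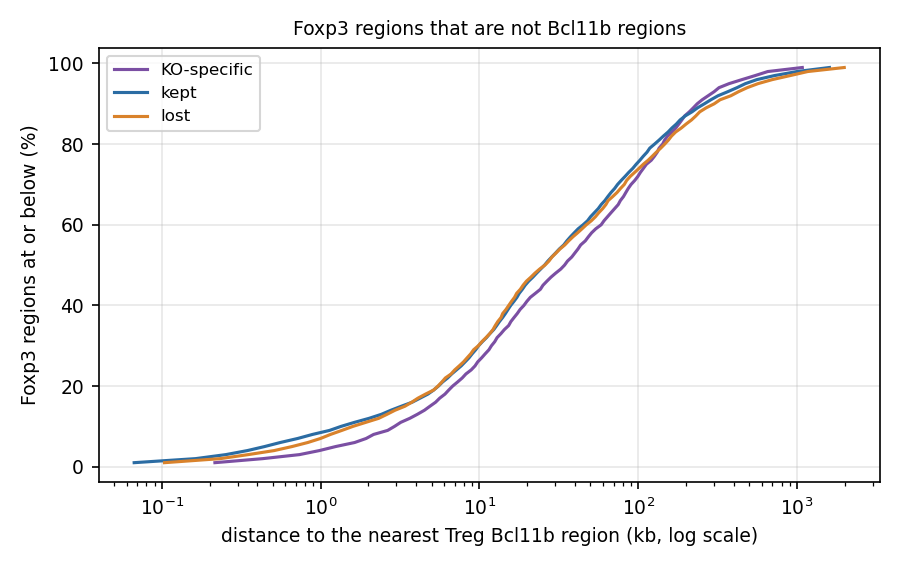
Curves show the percent of Foxp3 regions at or below a distance (kb, log scale) to the nearest Treg Bcl11b region, for regions that are not Bcl11b regions themselves, in steps of 1 percentile. The KO-specific curve lies to the right of the kept and lost curves at the median (34.4 against 25.7 and 25.9 kb) and to the left of them at the 90th percentile (235.0 against 260.7 and 300.7 kb).

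Around lost Bcl11b-Foxp3 regions, KO-specific regions were no denser than around kept ones. A KO-specific region lay within 5 kb of 4.87% of the 1253 lost regions (61, interval 3.81 to 6.20) and of 7.04% of the 2841 kept ones (200, interval 6.16 to 8.04). It lay within 5 kb of 3.33% of the Bcl11b-only regions in no list. Any KO Foxp3 region, kept or KO-specific, lay within 5 kb of 32.6% of the lost Bcl11b-Foxp3 regions (408).

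Matched regions lay near gene ends more often than the rest of the Bcl11b set when all widths were pooled. Of that rest, 64.8% were 198 bp wide, a width that no matched region had, and these sets were not compared within a width. The centre was within 1 kb of a gene end for 54.4% of matched regions (interval 52.6 to 56.2), for 30.0% of Treg Bcl11b regions outside the KO Foxp3 set (1270 of 4232, interval 28.6 to 31.4) and for 37.9% of all regions. Pooled over widths, this nearness did not separate kept from lost, which stood at 55.7% and 56.4% of the Bcl11b-Foxp3 regions. Of those over 276 bp, 74.9% were kept within 1 kb of a gene end (interval 72.7 to 77.0) and 79.6% farther off (interval 77.1 to 81.9). At 220 bp the order turned, with 47.2% and 39.7% kept and overlapping intervals. Within 1 kb of a gene end stood 45.9% of the Bcl11b-Foxp3 regions in no list and 21.8% of the KO-specific ones. Bcl11b-only regions in no list were the lowest of the Bcl11b classes, at 12.8% (interval 11.6 to 14.2), while the 27 kept Bcl11b-only regions stood at 59.3% (interval 40.7 to 75.5). KO-specific regions without Bcl11b were about as low, at 13.7% of those in neither list of the Bcl11b comparison (270 of 1972) and 27 of the 211 Foxp3-only ones. Inside a gene lay 58.9% of the matched regions (1762), 61.3% of the Treg Bcl11b regions outside the KO Foxp3 set and 60.4% of all regions.

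**Figure D4:**
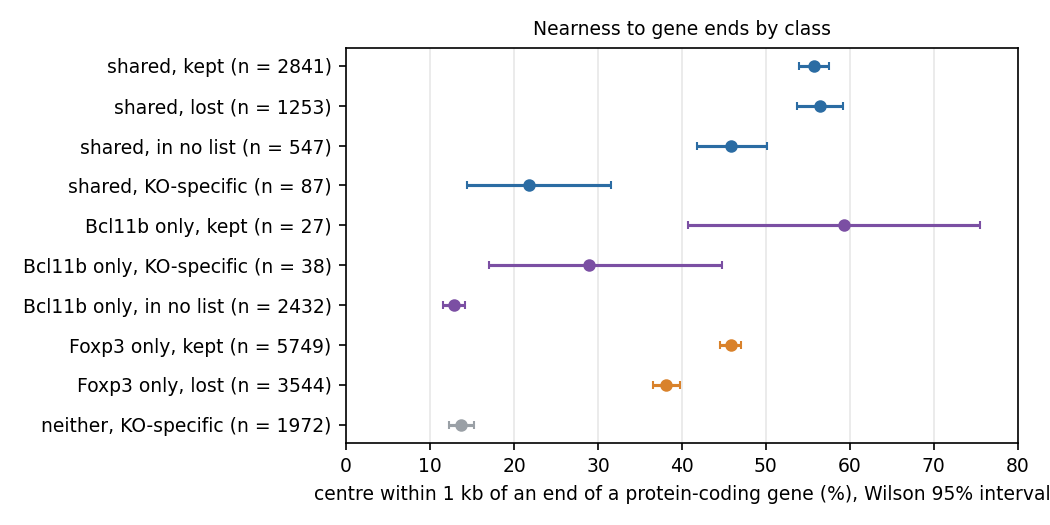
Points show the percent of regions with a centre within 1 kb of a protein-coding gene's start or end, with Wilson 95% intervals, by class in the Bcl11b comparison (blue, Bcl11b and Foxp3; purple, Bcl11b only; orange, Foxp3 only; grey, neither) and in the KO comparison. Kept and lost Bcl11b-Foxp3 regions lie together at 55.7% and 56.4%, and the 3 KO-specific classes drawn lie between 13.7% and 28.9%.

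Among Bcl11b-Foxp3 regions on the Treg side, Bcl11b listing in other T cells differed between kept and lost by less than the counting error. Left out of the shares below were 1167 of the 2841 kept and 641 of the 1253 lost regions for Tn cells. For KIKO cells 1289 and 677 were left out. At least 1 of these Treg sides listed 60.3% of the kept and 50.2% of the lost regions, with intervals that did not overlap. In the comparison of Treg with Tn cells, 91.7% of the kept Bcl11b-Foxp3 regions on the Treg side were listed as common with Tn (1535 of 1674), and 93.0% of the lost ones (569 of 612), a difference of -1.28 points (interval -3.54 to 1.33). In the comparison with KIKO cells, which lack Foxp3, 51.0% of the kept (792 of 1552) and 48.6% of the lost (280 of 576) were common with KIKO, a difference of 2.42 points (interval -2.36 to 7.18; odds ratio 1.10, interval 0.906 to 1.34). Both comparisons use the WT Treg Bcl11b libraries that also chose the regions. KO-specific Bcl11b-Foxp3 regions were common with Tn in 69.4% of 62 cases and with KIKO in 44.4% of 63. Among Bcl11b-only regions, 64.6% of those in the KO Foxp3 set (42 of 65) were common with Tn, against 32.4% of those in no list (787 of 2430), a difference of 32.2 points (interval 19.9 to 42.9). Among Bcl11b-only regions over 276 bp the direction was reversed: 62.7% (32 of 51) against 97.9% (46 of 47), a difference of -35.1 points (interval -49.0 to -20.2). The comparison with KIKO turned in the same way, from 30.8% against 19.2% over all widths to 33.3% against 58.3% over 276 bp.

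Regions were assigned to the nearest protein-coding gene within 100 kb. Matched regions then fell on 2565 of the 5440 genes with a Treg Bcl11b region, 2252 of them with 1 matched region and 20 with 4 or more. Where a gene held 2 or more kept or lost Bcl11b-Foxp3 regions (501 genes), all were kept at 227, all were lost at 41 and both occurred at 233. Over all genes, 69.3% of the Bcl11b-Foxp3 regions with a call were kept (2824 of 4073), and 41.6% of Treg Bcl11b regions were matched. The gene lists below were drawn up with earlier results of these data known, and each is described by its counts only. At several regions named below, Bcl11b rests on the comparison with Foxp3 alone. These include the kept regions at Cxcr4, Cd83, Stat5b and Rbpj, the upstream Il10 region, the Il2ra promoter region and chr2:11634983-11635301. The lost regions at Ctla4, Ikzf4, Bcl11b and Ccr7 are further cases. Both Cish regions and the Foxp3 region were on the Treg side of both other comparisons.

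Genes of the Treg signature held 34 Treg Bcl11b regions at 18 of 24 genes, beside 24.8% of all protein-coding genes with such a region. Such regions were as common in other T-cell lists: 17 of 19 naive and T-lineage, 14 of 15 IL-2 and STAT5, 11 of 14 homing and 14 of 20 T-cell receptor genes. T helper effector genes were lower, at 6 of 18. Of the 34 regions, 21 at 12 genes were matched. Of the Bcl11b-Foxp3 regions at Treg signature genes, 18 were kept and 5 lost, or 78.3% kept (interval 58.1 to 90.3). Il2ra had 4 Bcl11b-Foxp3 regions and all were kept: chr2:11634983-11635301, the promoter region chr2:11642520-11642837, and a pair inside the gene at chr2:11651574-11651875 and chr2:11653334-11653671. The region inside Foxp3 itself (chrX:7583933-7584227) was kept and was Treg-specific for Bcl11b against both Tn and KIKO cells. Tnfrsf18, which encodes the costimulatory receptor GITR, kept 3 of 3, and Cd83, an activation marker gene, kept 2 of 2. Il10, the gene of a cytokine that restrains inflammation, had a kept region upstream (chr1:131010549-131010846) and a KO-specific one 1.02 kb beyond the far gene end (chr1:131025849-131026132). Both Il10 regions were Bcl11b-Foxp3 regions.

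Other Treg genes held lost Bcl11b-Foxp3 regions, with other KO Foxp3 regions listed nearby. At Ctla4 the region inside the gene (chr1:60913292-60913648) was kept, while the promoter region (chr1:60908846-60909065) and an upstream one (chr1:60898537-60898756) were lost. Both lost Ctla4 regions were 220 bp wide and the kept one 357 bp. Outside the Treg Bcl11b set, Ctla4 also held a kept (chr1:60899455-60899730) and a KO-specific Foxp3 region (chr1:60911541-60911930). Ikzf4, which encodes the Ikaros family factor Eos, had no matched region: 2 Bcl11b-Foxp3 regions were lost (chr10:128637143-128637418 and chr10:128645995-128646214), and 1 Bcl11b-only region was in no list. Close to the second lost region, a Foxp3 region outside the Treg Bcl11b set was kept (chr10:128646362-128646637). Ikzf4 also held a KO-specific Foxp3 region outside that set (chr10:128663609-128663884). Ikzf2, which encodes Helios, and Klrg1, an inhibitory receptor gene, had no Treg Bcl11b region. Klrg1 nevertheless held 5 KO-specific Foxp3 regions, none at a Bcl11b region.

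Genes of naive cells and of the T lineage held 47 Treg Bcl11b regions, of which 21 were matched, with 19 Bcl11b-Foxp3 regions kept and 14 lost (57.6% kept, interval 40.8 to 72.8). Bcl11b itself, which carries floxed alleles in the KO cells, kept 2 regions (chr12:107993095-107993393 and chr12:107998719-107999043) and lost 2. Of the lost regions, 1 spans a gene end, that is, a place where the gene starts or ends (chr12:108004049-108004299). The first of the kept regions was listed as Tn-specific in the comparison with Tn cells, against its place in the Treg Bcl11b set. Ccr7, a lymph node homing receptor gene, kept 1 region (chr11:99163093-99163521) and lost 3, with 1 more in no list. Close to the lost region chr11:99155130-99155349, a Foxp3 region outside the Treg Bcl11b set was kept (chr11:99155391-99155666). Satb1, which encodes a chromatin organiser, had no matched region. All 3 of its Treg Bcl11b regions were 198 bp wide and in no list of the KO comparison. Of these, 1 was a Bcl11b-Foxp3 region just upstream of a Satb1 transcription start (chr17:51833394-51833591). Directly beside it a Foxp3-only region was kept (chr17:51833086-51833391), so Foxp3 was still listed there in KO Treg under other coordinates. Tcf7, which encodes the naive-cell factor TCF-1, kept 3 and had 1 KO-specific region (chr11:52268338-52268762). Cd5, a gene for an inhibitory surface receptor, kept 3, lost 1 and had 1 in no list, and Thy1, a T-cell surface marker gene, kept 3 and had 1 in no list.

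In T-cell receptor signalling, 17 of 32 Treg Bcl11b regions were matched, with 17 Bcl11b-Foxp3 regions kept and 8 lost. Ptpn22 kept 3 of 3 and Lck, the gene of the kinase that starts receptor signalling, kept 2 of 2. Egr1, an immediate early gene, kept 2 of its 5 Treg Bcl11b regions, and the other 3 were in no list.

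In the IL-2 and STAT5 list, 21 of 32 Treg Bcl11b regions were matched, with 20 Bcl11b-Foxp3 regions kept and 7 lost. Il2rb, the IL-2 receptor beta chain gene, kept 2 and had 1 KO-specific region (chr15:78493577-78493890). Cish, a feedback inhibitor gene of cytokine signalling, and Il4ra, the IL-4 receptor alpha chain gene, each kept 2. Stat5b kept 2 regions (chr11:100814616-100814891 and chr11:100822550-100822825) and lost 3, with 2 further Bcl11b regions in no list. Mcl1 kept 2 and lost 1, the region at the internal start printed above (chr3:95658378-95658817).

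Among homing genes 13 of 19 Treg Bcl11b regions were matched, with 12 Bcl11b-Foxp3 regions kept and 3 lost. Cxcr4 kept 2 of 2. Cxcr5, the receptor gene for entry into B-cell follicles, kept 2, lost 1 and had 1 KO-specific region (chr9:44537802-44538140). Ccr9, a gut homing receptor gene, kept 2 of its 3 Bcl11b regions, and Itga4, the integrin alpha 4 gene, kept 2 and lost 1.

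T helper effector genes held 9 Treg Bcl11b regions at 6 of 18 genes, beside 24.8% of all protein-coding genes with such a region. Of the 9, 5 were matched, 4 kept and 1 KO-specific. Batf kept 2 of 2. Bhlhe40, a gene for a transcription factor of cytokine-producing T cells, kept 1 and had 1 KO-specific region (chr6:108658336-108658715), and Bcl6, the gene of the follicular helper factor, kept 1. Genes of NuRD and Bcl11b partners held 6 Treg Bcl11b regions, and 3 were matched, 1 each at Gatad2a, Mbd2 and Rbbp4. Rbpj, which encodes the DNA-binding factor of Notch signalling, kept 1 region (chr5:53594301-53594576), while its 4 other Bcl11b regions were 198 bp wide and in no list.

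Markers of other cell types, which a sort could carry along, are given by their counts, beside the 24.8% of all protein-coding genes with a Treg Bcl11b region (5440 of 21896). The CD8 T and NK list had 1 in 11 genes, a KO-specific matched region assigned to Ccl5. The B-cell list had 1 in 8 genes, which was not matched, and the myeloid list had 1 in 8 genes, a kept region at Spi1. The same lists held 9, 3 and 4 KO-specific Foxp3 regions, at Bcl11b regions or not. Over the whole series there were 2308 KO-specific regions beside 21896 protein-coding genes, so each list held more per gene. So did every other gene list above, from 4 regions in 13 genes (NuRD and Bcl11b partners) to 18 in 18 (T helper effector). Holding more per gene was thus not particular to the markers of other cell types. The reason was not tested.

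Amz2 held the most kept Bcl11b-Foxp3 regions, with 6, and Akna had 5. Among the genes with 4 each, as at Il2ra, the first by symbol were Arhgap25, Arhgef3 and Btg2. Akna encodes an AT-hook protein, Arhgap25 and Arhgef3 regulators of small GTPases, and Btg2 an antiproliferative protein. Amz2, Akna and Arhgef3 each held 1 KO-specific matched region besides. At Btg2 and Arhgap25 every Treg Bcl11b region was kept. Fam169b and Igsf23 held the most lost regions, with 4 each. The genes with 3 lost regions included B4galnt1, a ganglioside synthesis gene, and C2cd5, as well as Ccr7 and Stat5b. Fam169b, Igsf23, B4galnt1 and C2cd5 held no matched region, while Ccr7 and Stat5b did. A pair of KO-specific matched regions stood at each of Arid5a, Cerk, Hemk1 and Ralgds. The Bcl11b-only regions in no list were most numerous at Hbs1l, with 4, all 198 bp wide.

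Promoters with a matched region carried Ets motifs more often than other promoters. RefSeq promoter windows (250 bases before to 50 after a start) were at hand for 17468 of 21896 protein-coding genes, 21237 windows in all, and 1258 of the 2993 matched regions overlapped at least 1 of them. The Ets motif CCGGAA was in 50.1% of the 1506 windows at kept Bcl11b-Foxp3 regions, in 43.3% of the 668 at lost ones and in 35.1% of the 94 at Bcl11b-only regions in no list. It was in 32.7% of the windows at kept and 31.1% at lost Foxp3-only regions, and in 18.7% of all windows. The windows at Bcl11b-Foxp3 regions thus stood above those at Foxp3-only regions, and the interval at Bcl11b-only regions (26.2% to 45.2%) held the share at lost Bcl11b-Foxp3 regions and both Foxp3-only shares. The Sp/Klf motif GGGCGG ran the other way, at 64.1% and 62.6% with Bcl11b and at 71.8% and 72.7% without it, against 46.2% of all windows. The median GC content was 61.5% and 61.0% with Bcl11b and 62.0% for both classes without it, against 56.3% over all windows.

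The forkhead motifs were no more frequent at matched promoters than elsewhere, at 5.58% of the windows at kept and 5.39% at lost Bcl11b-Foxp3 regions, against 7.41% of all windows. The Runx motif was in 13.7% and 14.1%, against 15.0%, and the BCL11A-type motif in 151 of the 1506 windows at kept and 51 of the 668 at lost regions (7.63%), against 12.5% of all. The AP-1 motif was in 3.98% and 3.44%, against 6.99%. These are matches of short letters within the window, neighbouring windows can share sequence, and the windows cover less than 80% of the genes. The sequence of matched regions away from promoters was not used here.

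**Figure D5:**
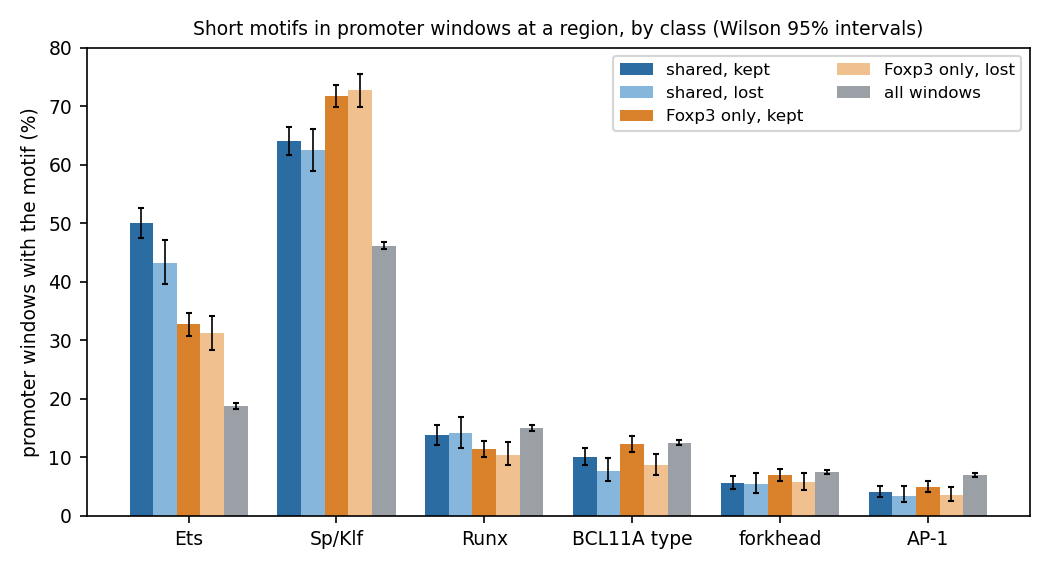
Bars show the percent of promoter windows that hold each motif on either strand, with Wilson 95% intervals, for windows at kept and lost Bcl11b-Foxp3 regions (blues), at kept and lost Foxp3-only regions (oranges) and for all windows (grey). The Ets bars are highest with Bcl11b (50.1% and 43.3%), and the Sp/Klf bars are highest without it (71.8% and 72.7%).

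Matched regions were spread over all chromosomes listed. Their share of the Treg Bcl11b regions ranged from 31.5% on chromosome 3 to 47.1% on chromosome 17. The kept share of Bcl11b-Foxp3 regions ranged from 51.7% on chromosome X (15 of 29) to 77.2% on chromosome 2.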

How the data were processed

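The authors deposited 12 region lists, with 3 lists for each of 4 comparisons, and each list holds positions (chromosome, start, end) as its only values, with no score or read count, so the depth is unknown. The submitters' processing notes name HISAT2 2.1.0, HOMER 4.10.1, SAMtools 1.3, deepTools, cutadapt 1.12 with Trim Galore 0.4.2, and FastQC, and the build mm10, without saying what each did. The peak threshold, the pooling of replicates and the rule for a common region were not given in the sources used. One of the 3 WT Treg Bcl11b libraries names no list in its label, and 1 WT Foxp3 library leaves out the list common with Bcl11b.

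Starts were made 1-based, repeated rows were merged, and regions were matched by identical coordinates. The 17 regions in 2 lists of the KO comparison were left out. Shares have Wilson 95% intervals, differences Newcombe intervals and odds ratios conditional exact intervals (Python 3.11.15, scipy 1.17.1), which were tested on simulated data. Regions are not replicates, so no test was run. Gene ends came from RefSeq GRCm38.p6. Named genes were 12 chosen genes, the 5 genes with the most regions in each of 4 classes and up to 4 per list; others are said to be chosen after their values, and a few named by this rule are not reported here. The regions, lists and alternatives were chosen with earlier results of these data known.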

Additional observations from a re-analysis of the deposited data

How the results depend on the processing

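Of 71 alternatives to the 7 main shares, 32 moved the value by less than its counting interval, 37 moved it by more and 2 reversed a sign. In the order Treg Bcl11b regions in the KO Foxp3 set, KO Foxp3 regions at Bcl11b regions, kept share of Bcl11b-Foxp3 regions, its difference from Foxp3-only regions (points), KO-specific regions at Bcl11b regions, Bcl11b-only regions in the KO Foxp3 set and gene-end share of matched regions, the main values were 41.4%, 23.3%, 69.4%, 7.53, 5.42%, 2.60% and 54.4%. With region edges up to 500 bp apart, 4 of these became 46.2%, 26.9%, 7.54% (KO-specific) and 3.60% (Bcl11b-only). With the Treg Bcl11b set taken from the comparison with Tn cells the values were 33.1%, 16.8%, 73.9%, 12.1 points, 4.24% (Bcl11b-only) and 60.4%, and from that with KIKO cells 32.7%, 14.4%, 73.6%, 11.4 points, 3.51% (Bcl11b-only) and 59.6%. With regions on the Treg side of all 3 comparisons they were 31.7%, 12.7%, 73.0%, 10.5 points, 4.29% (KO-specific) and 59.3%. In these 3 alternatives the Bcl11b-Foxp3 regions with a call numbered 2635, 2287 and 2071 instead of 4094. WT Foxp3 regions outside the chosen Bcl11b set joined the reference, and Bcl11b-only meant regions of that set without WT Foxp3. The differences in points are thus not the same measure as 7.53. Among regions over 276 bp the 7 values were 74.8%, 42.5%, 76.8%, -7.63 points, 30.9%, 51.5% and 56.4%. Farther than 1 kb from a gene end they were 31.5%, 18.2%, 11.0 points and 1.76% (Bcl11b-only). A distance of 2.5 kb gave a gene-end share of 64.7%. An alternative chosen after seeing the data, KO-comparison regions of at least 276 bp only, gave 35.5%, 25.2%, 76.8% and -7.74 points, and another, the reference with regions in neither list, gave 1.07 points. Keeping regions in 2 classes and autosomes only left each of the 7 values within its counting interval. The 9 gene lists with matched regions did not move with assignment within 20 kb. Matching centres within 100 bp could change no value, because no regions of the series overlap and none is narrower than 198 bp. Its unchanged values are counted among the 32. No paired analysis was possible because the lists are per group and hold no value per replicate; for the same reason no replicate could be left out. The depth of the libraries is unknown, and an absent region may be one that was not detectable.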
